A study of Homo sapiens with 9 samples.

Results

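Cytoplasmic dynein-1 is the motor complex described here, through the mRNAs of 10 of its subunits: the heavy chain gene DYNC1H1, the intermediate chain genes DYNC1I1 and DYNC1I2, the light intermediate chain genes DYNC1LI1 and DYNC1LI2, and the light chain genes DYNLL1, DYNLL2, DYNLRB1, DYNLT1 and DYNLT3. They were taken by name from a table of 38179 gene entries, whatever their values, and all 10 were among the 21071 genes that passed the expression minimum. RNA came from U-2 OS, a human osteosarcoma cell line. Every culture received Cas9 mRNA and 1 synthetic guide: NTC, a non-targeting guide; crXCR1, which cuts XCR1, a chemokine receptor gene of dendritic cells that served as a control for DNA breakage; or crSUGP1, which cuts SUGP1, the gene of a nuclear protein of pre-mRNA splicing. Each guide was used in 3 independent experiments with 1 library of polyA RNA per guide, 9 libraries in all. The cells were edited populations rather than clones, so uncut alleles may remain in each. The labels give 50 nM guide and 72 h before fixation for the imaging plates, whereas RNA was taken from separate flasks. The comparison asks whether loss of SUGP1 alters the expression of dynein subunits.

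Dynein-1 walks along microtubules towards their minus ends and carries organelles, endosomes, peroxisomes and mRNAs to the centre of the cell. A dimer of heavy chains holds the ATPase and microtubule-binding domains. Intermediate chains and light intermediate chains bind the heavy chain tail; the intermediate chain also binds dynactin and the regulators LIS1 and NDEL1 and carries the light chains, and the light intermediate chain binds cargo adaptors. Several chains are encoded by pairs of paralogous genes, with DYNC1I1 known mainly from neurons and DYNC1I2 expressed in most cells.

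The targeted gene was low in each crSUGP1 library. SUGP1 stood at 30.2, 30.8 and 28.3 CPM (counts scaled to the library total) in the NTC libraries of experiments 1, 2 and 3, at 31.6, 29.0 and 28.2 in crXCR1 and at 7.88, 7.69 and 6.52 in crSUGP1. CPM throughout carry the library scaling of edgeR (trimmed mean of M values, TMM). XCR1 had 0, 0 and 1 counts in NTC, 13, 13 and 14 in crXCR1 and 0 in each crSUGP1 library, so a loss of its mRNA could not be measured. Libraries held 68713077 to 107953507 counts, and mitochondrial transcripts took 4.03% to 5.01% of them, with group means from 4.49% to 4.54%. Of the osteoblast and mesenchymal markers, COL1A1 (554 to 1020 CPM) and SPARC (740 to 1060 CPM) were abundant, whereas SP7 and IBSP were at or near 0. COL1A2 (0.0992 to 0.215 CPM) and BGLAP (0.751 to 1.03) were also low. Between them lay RUNX2 (16.9 to 27.5), ALPL (6.51 to 15.6) and SPP1 (4.54 to 11.7). Summed markers of leukocytes (5.82 to 8.01 CPM, CD3E at 0 throughout) and ciliated cells (3.02 to 3.50 CPM) were low and overlapped between the guides. Summed neuron markers reached 29.2 to 31.5 CPM in NTC, 31.7 to 32.7 in crXCR1 and 34.0 to 36.1 in crSUGP1, without overlap. For 13.1% of all tested genes the crSUGP1 libraries did not overlap the other 6. RBFOX3 (14 to 22.3 CPM) made up the largest part of this sum. The neuron list did not move as one. In both crSUGP1 comparisons RBFOX3, SNAP25 and STMN2 had higher values and MAP2 and SYT1 lower ones. Against crXCR1 the log2 fold changes ran from -0.27 (SYT1) to 1.08 (STMN2). Summed epithelial markers reached 19.1 to 27.6 CPM over all libraries. With any guide, 0 of the 20 tested markers were called. Of all tested genes, 0.783% were called in crSUGP1 against NTC, 0.774% against crXCR1 and 0% in crXCR1 against NTC. At these shares, 0 calls among 20 genes say little about the cell types present. With the experiment as a term, the neuron marker STMN2, at 0.349 to 1.79 CPM, was called higher in crSUGP1 (log2 fold change 1.04 and 1.08 in the fit without it). The fit with that term called 2.85% of all tested genes in crSUGP1 against NTC and 3.9% against crXCR1. The part of other cell types in the values below was not tested. In RNA from whole cultures, fewer cells that express a gene and less RNA of it per cell cannot be told apart.

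The sequences below show what tells the subunits of a pair apart in a read of 150 bases. The site of the crSUGP1 guide is shown with its protospacer adjacent motif in capitals. It lies at chr19:19297309-19297331 on the plus strand of GRCh38, in coding exon 8 of the canonical SUGP1 transcript, which is read from the minus strand.
crSUGP1 site: tacttgtacccttggctattGGG
For 3 of the paralog pairs the first 30 coding bases are shown, 5′ to 3′, from the GENCODE v44 canonical transcripts, with the bases that differ within a pair in capitals.
DYNC1I1: atgtcTgacaaaagtgaCttaaaAgctgag
DYNC1I2: atgtcAgacaaaagtgaAttaaaGgctgag
DYNLL1: atgtGCgaccgAaaggcCgtgatcaaAaaT
DYNLL2: atgtCTgaccgGaaggcAgtgatcaaGaaC
DYNLRB1: atggcagaggtggaggaGacACtGaagCgA
DYNLRB2: atggcagaggtggaggaAacCTtAaagAgG
The intermediate chain genes differed at 3 of these 30 bases and the other pairs at 6. Over their whole aligned coding sequences DYNC1I1 and DYNC1I2 were 72.8% identical, DYNC1LI1 and DYNC1LI2 70.5%, DYNLL1 and DYNLL2 79.6%, DYNLT1 and DYNLT3 69.2%, and DYNLRB1 and DYNLRB2 70.4%. The longest identical coding runs are shown for the pairs that share the most.
DYNC1I1 and DYNC1I2, 23 bases: agtgaagctggaagccaagactc
DYNLL1 and DYNLL2, 25 bases: atatcaagaaggaatttgacaagaa
Both runs are far shorter than a read, and no window of 150 bases in a canonical transcript was shared within any pair. Windows were shared with other genes for DYNC1I2 (3.64%, with the pseudogene DYNC1I2P1), DYNC1H1 (0.945%), DYNC1LI2 (22.8%, with a lncRNA on the opposite strand) and DYNLRB1 (85.6%, with an overlapping gene model), so the values of DYNLRB1 in particular may hold reads of another transcript. The strand used in counting is not given in the sources used here. Exons of DYNC1H1 and DYNC1LI2 overlap genes on the other strand that have no entry under the same name in the table, and DYNLL1 overlaps the lncRNA NRAV (1362 to 2104 counts), so such reads cannot be told apart.

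In cells edited with crSUGP1, DYNC1I2 was the single subunit called: it fell by 41.7% against NTC and fell by 38.7% against crXCR1. In both comparisons 9 of 10 subunits were not called, which does not show that they were unchanged. Smaller differences of DYNC1H1, DYNC1LI1 and DYNC1LI2 are given below. A gene was called where edgeR's quasi-likelihood test gave an adjusted p (Benjamini-Hochberg, over all tested genes) no higher than 0.05 and the log2 fold change was 0.5 or more in either direction. Of all tested genes, 0.783% were called against NTC (0.456% lower) and 0.774% against crXCR1 (0.584% lower), compared with 1 of 10 subunits, lower, in each. The crXCR1 guide called 0 of 10 subunits against NTC, with 0 subunits at an unadjusted p under 0.05, and 0% of all tested genes; DESeq2 also called 0. With the experiment as a term in the fit the subunits called were 1, 1 and 0 again, while the share of all tested genes became 2.85% for crSUGP1 against NTC, 3.9% against crXCR1 and 0.00475% between the control guides. The median log2 fold change over the 10 subunits was 0.03 against NTC and 0.05 against crXCR1, beside -0.0039 and -0.0030 over all tested genes. Both comparisons share the crSUGP1 libraries.

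**Figure D1:**
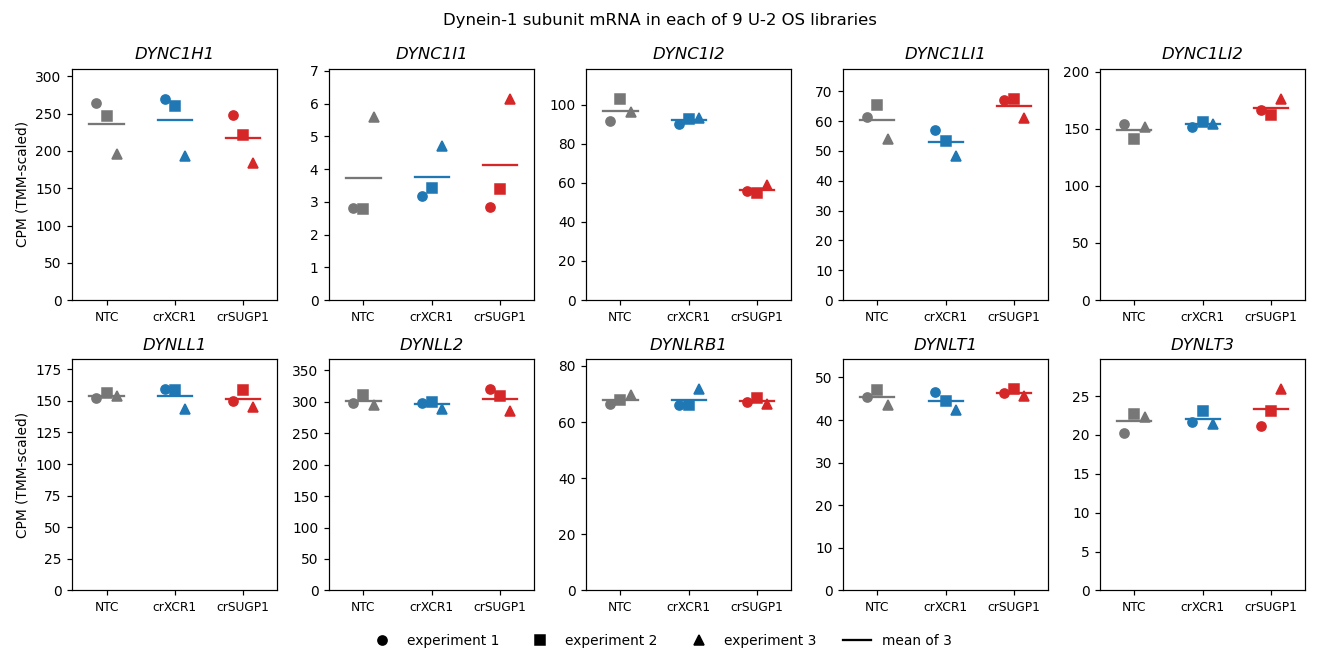
TMM-scaled CPM (y axes, each from 0) of the 10 dynein-1 subunit mRNAs in the 9 libraries, by guide (x axes, color) and experiment (symbol), with the mean of 3 libraries as a line. DYNC1I2 sits at 54.7 to 59.1 CPM in crSUGP1 and at 90.3 to 103 CPM in the other libraries; DYNC1H1 is lowest and DYNC1I1 highest in experiment 3.

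DYNC1H1 (chr14:101964573-102056443, plus strand) encodes the heavy chain, the ATPase of the motor. It stood at 264, 247 and 196 CPM in NTC, at 270, 260 and 194 in crXCR1 and at 248, 222 and 183 in crSUGP1 (experiments 1, 2 and 3). The crSUGP1 library was the lowest of its experiment each time, but the groups overlapped. The log2 fold change was -0.11 (95% interval -0.47 to 0.24, edgeR adjusted p = 0.841) against NTC and -0.15 (-0.51 to 0.21, adjusted p = 0.702) against crXCR1. With the experiment as a term in the edgeR fit the adjusted p values were 0.107 and 0.0353, at changes under the fold minimum.

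DYNC1I2 (chr2:171687409-171750158, plus strand) encodes the intermediate chain of most cell types. Its level was 91.5, 103 and 96.1 CPM in NTC, 90.3, 92.8 and 93.4 in crXCR1, and 55.7, 54.7 and 59.1 in crSUGP1. All 3 crSUGP1 libraries lay below the other 6, a position taken by 6.69% of all tested genes, and the crXCR1 libraries overlapped NTC. The NTC libraries averaged 96.9 ± 5.82 CPM, those of crXCR1 92.2 ± 1.66 and those of crSUGP1 56.5 ± 2.31 (SD, n = 3). The log2 fold change was -0.78 (SE 0.06, 95% interval -0.91 to -0.64, edgeR adjusted p = 0.000296) against NTC and -0.71 (SE 0.06, -0.84 to -0.57, adjusted p = 0.000508) against crXCR1. Within experiments 1, 2 and 3 it was -0.72, -0.91 and -0.70 against NTC and -0.70, -0.76 and -0.66 against crXCR1. Between the control guides it was -0.07 (-0.21 to 0.06). Without experiment 1 the fold changes were -0.80 and -0.70 at adjusted p = 0.0884 and 0.127, and without experiment 2 -0.71 and -0.68 at 0.109 and 0.125, so the call was lost in those fits, which called 0 to 2 genes in all. With the experiment as a term the same libraries gave adjusted p values from 6.53e-07 to 8.03e-05, a setting added after the data were seen.

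The other intermediate chain gene, DYNC1I1 (chr7:95772506-96110322, plus strand), had the fewest counts of the 10, with 198 to 525 per library. It stood at 2.81, 2.79 and 5.58 CPM in NTC, at 3.18, 3.42 and 4.70 in crXCR1 and at 2.85, 3.40 and 6.15 in crSUGP1. The groups overlapped, and the spread lay between experiments: each library of experiment 3 was above all 6 of experiments 1 and 2. Log2 fold changes between guides were 0.14 (-0.63 to 0.91) for crSUGP1 against NTC, 0.12 (-0.65 to 0.89) against crXCR1 and 0.02 (-0.76 to 0.79) for crXCR1 against NTC. The intervals were narrower with the experiment as a term, -0.09 to 0.37 against NTC and -0.13 to 0.33 against crXCR1, and lay below a rise as large, on the log2 scale, as the fall of DYNC1I2. The wider intervals, without that term, include such a rise. Equal log2 changes of both genes are far from equal in CPM, since DYNC1I1 is much the lower.

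DYNC1LI1 (chr3:32525974-32570858, minus strand), a light intermediate chain gene, was at 61.3, 65.4 and 54.0 CPM in NTC, at 57.1, 53.2 and 48.4 in crXCR1 and at 67.1, 67.5 and 60.9 in crSUGP1. In every experiment crXCR1 was lowest and crSUGP1 highest, although the groups overlapped across experiments. It was 0.30 higher on the log2 scale in crSUGP1 than in crXCR1 (0.10 to 0.50, edgeR adjusted p = 0.14), 0.11 higher than in NTC (-0.08 to 0.31, adjusted p = 0.656), and -0.19 (-0.38 to 0.01) in crXCR1 against NTC. With the experiment as a term the first of these had an adjusted p of 0.000646 and DESeq2 gave 0.0384, in both cases under the fold minimum, where DESeq2 passed 4.94% of all genes on p alone. DYNC1LI1 lies on the short arm of chromosome 3, on the telomere side of XCR1, which the crXCR1 guide cuts and which starts at position 46017007 of GRCh38. The other 224 genes of at least 1 CPM on that side had a median log2 fold change of -0.19 in crXCR1 against NTC, with 94.2% of them lower, and of 0.21 in crSUGP1 against crXCR1; the 668 genes on the rest of the chromosome had medians of -0.02 and 0.04. Its 17 neighbours of at least 1 CPM within 1 Mb had medians of -0.20 and 0.24. The value of DYNC1LI1 thus lay close to those of the genes around it in both comparisons with crXCR1, and the part of its position in its value was not tested.

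DYNC1LI2 (chr16:66720893-66751609, minus strand), the second light intermediate chain gene, was at 154, 141 and 151 CPM in NTC, at 152, 156 and 154 in crXCR1 and at 167, 162 and 176 in crSUGP1. All 3 crSUGP1 libraries lay above the other 6, as they did for 6.36% of all tested genes; with DYNC1I2, 2 of 10 subunits did not overlap, against 13.1% of all tested genes. The log2 fold change was 0.18 (0.05 to 0.31, edgeR adjusted p = 0.206) against NTC and 0.13 (-0.00098 to 0.26, adjusted p = 0.315) against crXCR1, and neither passed. With the experiment as a term the adjusted p values were 0.0204 and 0.0707. In that fit 15.7% of all genes had an adjusted p of at most 0.05 against NTC and 21.7% against crXCR1 with no fold minimum.

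**Figure D2:**
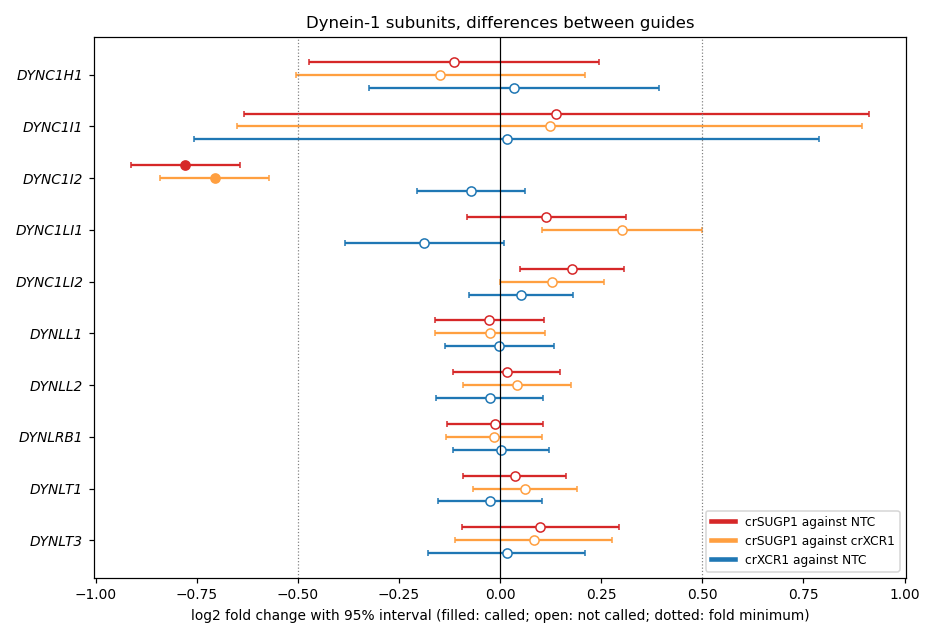
Log2 fold changes (x axis) of the 10 subunits (y axis) in the 3 comparisons between guides, as points with 95% intervals from edgeR; filled points were called, open points were not, and dotted lines mark the fold minimum of 0.5. Only the 2 comparisons of crSUGP1 for DYNC1I2, at -0.78 and -0.71, are filled, and DYNC1I1 has the widest intervals.

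The light chains bind the intermediate chains as dimers, and LC8 and TCTEX proteins also serve complexes other than dynein. DYNLL1 (chr12:120469850-120498493, plus strand), an LC8 gene, ranged from 152 to 156 CPM in NTC, 144 to 159 in crXCR1 and 145 to 159 in crSUGP1. DYNLL2 (chr17:58083419-58095542, plus strand), the other LC8 gene, ranged from 295 to 311, 289 to 300 and 284 to 320 CPM in the same order. Both LC8 mRNAs overlapped between all guides, with log2 fold changes of -0.03 and -0.02 for DYNLL1 and 0.02 and 0.04 for DYNLL2 in crSUGP1 against NTC and crXCR1. ATMIN, a transcription factor known to act on DYNLL1, was at 68.0 to 71.7 CPM in NTC, 67.8 to 69.8 in crXCR1 and 72.1 to 78.1 in crSUGP1, with log2 fold changes of 0.09 (edgeR adjusted p = 0.538) and 0.11 (0.364). DYNLRB1 (chr20:34516414-34540958, plus strand), a roadblock gene, ranged from 66.6 to 69.6 CPM in NTC, 66.2 to 71.7 in crXCR1 and 66.5 to 68.6 in crSUGP1. DYNLT1 (chr6:158636474-158644743, minus strand), a TCTEX gene, ranged from 43.5 to 47.0, 42.5 to 46.6 and 45.8 to 47.3 CPM. DYNLT3 (chrX:37836757-37847571, minus strand), its paralog, ranged from 20.3 to 22.7, 21.4 to 23.1 and 21.1 to 25.9 CPM. None of the 5 light chain mRNAs was called with any guide, and all 5 overlapped between the groups. Leaving out DYNC1I1 and DYNC1I2, the 95% intervals of the other 8 subunits ran at their widest from -0.47 to 0.31 for crSUGP1 against NTC and from -0.51 to 0.50 against crXCR1.

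Levels between subunits can be compared only per length of exon. With CPM divided by the kilobases of all annotated exons of a gene, NTC cells ranked DYNLL1 first (52.6 ± 0.585 CPM per kb, SD, n = 3), followed by DYNLL2 (44.2 ± 1.28), DYNLRB1 (26.6 ± 0.591), DYNC1LI2 (18.4 ± 0.853), DYNLT1 (15.3 ± 0.605), DYNC1I2 (15.1 ± 0.90), DYNC1LI1 (9.85 ± 0.937), DYNLT3 (6.99 ± 0.417), DYNC1H1 (6.06 ± 0.914) and DYNC1I1 (0.816 ± 0.351). DYNLT1 and DYNC1I2 overlapped in their ranges, as did DYNLT3 and DYNC1H1; the other neighbours in this order did not. In crSUGP1, DYNC1I2 had 8.78 ± 0.359 CPM per kb, with all its libraries (8.51 to 9.19) below those of DYNC1LI1 (at least 9.96) and above those of DYNLT3 (6.76 to 8.30). In crXCR1 it had 14.3 ± 0.257 and again overlapped DYNLT1. With the longest transcript in place of all exons, the order in NTC differed, with DYNLL1 at 112, DYNLRB1 at 46.4 and DYNLL2 at 44.2 CPM per kb. On that scale DYNC1I2 lay above DYNLT1 in NTC, at 22.2 and 15.7 CPM per kb, and below it in crSUGP1, at 13.0 and 16.1. In crSUGP1 the range of DYNC1I2 (12.6 to 13.6) then overlapped that of DYNC1LI1 (12.7 to 14.1), so their separation rested on the length used. The longest transcripts of DYNLT1 and DYNC1LI1 have 2891 and 4791 bases and their canonical transcripts 730 and 2485. For DYNC1I2 both have 4354 bases. The order of these genes thus depends on the transcript taken, and levels per canonical length were not compared.

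The share that each paralog held of its chain follows from the same scale. DYNC1I1 made up 4.15%, 3.68% and 7.56% of the intermediate chain mRNA in NTC, 4.73%, 4.93% and 6.62% in crXCR1 and 6.73%, 8.04% and 12.8% in crSUGP1 (experiments 1, 2 and 3). It was highest in crSUGP1 within each experiment, while the groups overlapped across experiments. DYNC1I1 itself was not called, with log2 fold changes of 0.14 (edgeR adjusted p = 0.923) against NTC and 0.12 (0.899) against crXCR1. Those of DYNC1I2 were -0.78 and -0.71. The share and the ratio below therefore largely repeat the fall of DYNC1I2 and are no separate evidence of a rise of DYNC1I1. Counts of DYNC1I2 per count of DYNC1I1 were 32.5, 36.9 and 17.2 in NTC, 28.4, 27.1 and 19.9 in crXCR1 and 19.5, 16.1 and 9.61 in crSUGP1. The mean log2 ratio in crSUGP1 was lower by 0.85 than in the other 6 libraries, with p = 0.0476 before and 0.381 after adjustment over 8 ratio tests (exact two-sided permutation test, where 3 libraries against 6 cannot give a p below 0.0119, or 0.0952 after adjustment for a ratio that is alone at that limit). Without the crSUGP1 library of experiment 3 the difference was -0.56, with an exact permutation p of 0.143 before adjustment. When arrangements were kept within experiments, the p was 0.037, the smallest that this test allows, and 0.148 after adjustment.

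**Figure D3:**
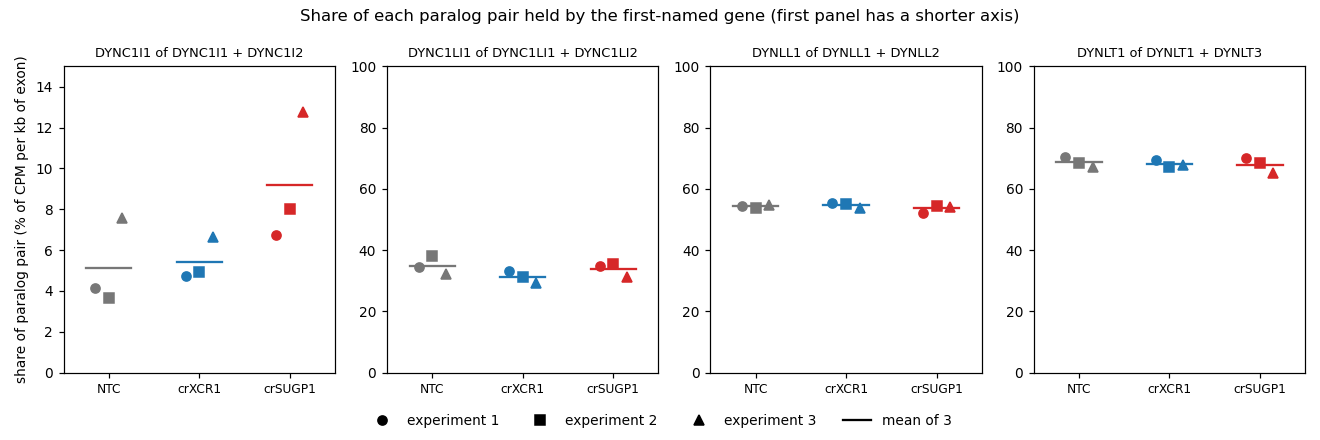
Share of a paralog pair (y axes, percent of the pair's CPM per kb of exon) held by the first-named gene in each library, by guide (x axes, color) and experiment (symbol), with means as lines; the first panel ends at 15% and the others at 100%. DYNC1I1 reaches 6.73% to 12.8% in crSUGP1 and 3.68% to 7.56% in the other libraries; DYNC1LI1 lies between 29.4% and 38.1% and overlaps between the guides.

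The ratios of the other pairs were tested under the same limit. With NTC, crXCR1 and crSUGP1, DYNC1LI1 held 34.9% ± 2.99, 31.2% ± 1.93 and 33.9% ± 2.23 of the light intermediate chain mRNA (SD, n = 3). Its log2 ratio to DYNC1LI2 in crXCR1 was lower by 0.21 than in the other libraries (exact permutation p = 0.0952, adjusted 0.381). DYNLL1 held 54.3% ± 0.502, 54.7% ± 0.923 and 53.6% ± 1.27 of the LC8 mRNA, and DYNLT1 68.7% ± 1.52, 68.1% ± 1.25 and 67.8% ± 2.45 of the TCTEX mRNA. DYNLRB1 made up 99.8% of the roadblock mRNA in NTC, since DYNLRB2, a paralog known from ciliated cells, had 2 to 12 counts per library. The division between DYNLL1 and DYNLL2 rested on the length used: DYNLL1 held 71.7% in NTC with the longest transcripts and 33.9% of the counts with no length. Other shares moved with the length by less. In NTC, DYNC1LI1 held 26.8% with the longest transcripts and 28.8% with no length, and DYNLT1 held 60.7% and 67.5%.

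Ratios between chains need no scaling between libraries. DYNC1I2 had 0.594, 0.732 and 0.635 counts per count of DYNC1LI2 in NTC, 0.595, 0.594 and 0.607 in crXCR1 and 0.334, 0.338 and 0.336 in crSUGP1. The crSUGP1 libraries lay close together and below the other 6. DYNC1LI2 itself was higher in all 3 crSUGP1 libraries, as above, so this ratio fell by more than the CPM of DYNC1I2. Per count of DYNC1H1, DYNC1I2 had 0.346, 0.417 and 0.491 in NTC, 0.334, 0.357 and 0.482 in crXCR1 and 0.224, 0.247 and 0.323 in crSUGP1. That ratio was also lowest in crSUGP1 within each experiment and again below the other 6 libraries, though by a small gap, and it was highest in experiment 3 for each guide. These ratios were not among those tested and are given as a description.

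Between experiments the subunits moved differently. Each experiment is represented here by its 3 libraries, each with another guide, so the p-values do not measure how far further experiments would differ. With the guide held fixed, 0 of 10 subunits were called in experiment 2 against 1 (0.0332% of all tested genes, with 1 subunit at an unadjusted p under 0.05; DESeq2 called 0 subunits and 0.0427% of genes). DYNC1I1 alone was called in experiment 3 against 1 (1 of 10 subunits, beside 11.2% of all tested genes, 7.66% higher) and against 2 (1 of 10, beside 9.5%, 6.82% higher). It stood at 2.95 ± 0.203, 3.20 ± 0.355 and 5.48 ± 0.729 CPM in experiments 1, 2 and 3 (SD, n = 3), and was higher by 0.89 on the log2 scale (0.66 to 1.11, edgeR adjusted p = 9.2e-06) and by 0.77 (0.54 to 0.99, adjusted p = 5.28e-05). DYNC1H1 was at 261 ± 11.2, 243 ± 19.5 and 191 ± 6.78 CPM, with log2 fold changes of -0.45 (-0.55 to -0.35, adjusted p = 2.32e-06) and -0.35 (-0.44 to -0.25, adjusted p = 3.59e-05), past the threshold on p but not the fold minimum. DYNC1LI1 was in the same position at -0.19 in both (adjusted p = 0.0064 and 0.00722), where 42.1% and 37.7% of all genes passed on p alone. The 3 libraries of experiment 3 did not overlap the other 6 for DYNC1H1 and DYNLL2, which were lower, and DYNC1I1, which was higher: 3 of 10 subunits, beside 30.5% of all tested genes. DYNC1I2 did not move with them, with log2 fold changes of 0.07 (-0.04 to 0.17) and 0.0037 (-0.10 to 0.11).

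**Figure D4:**
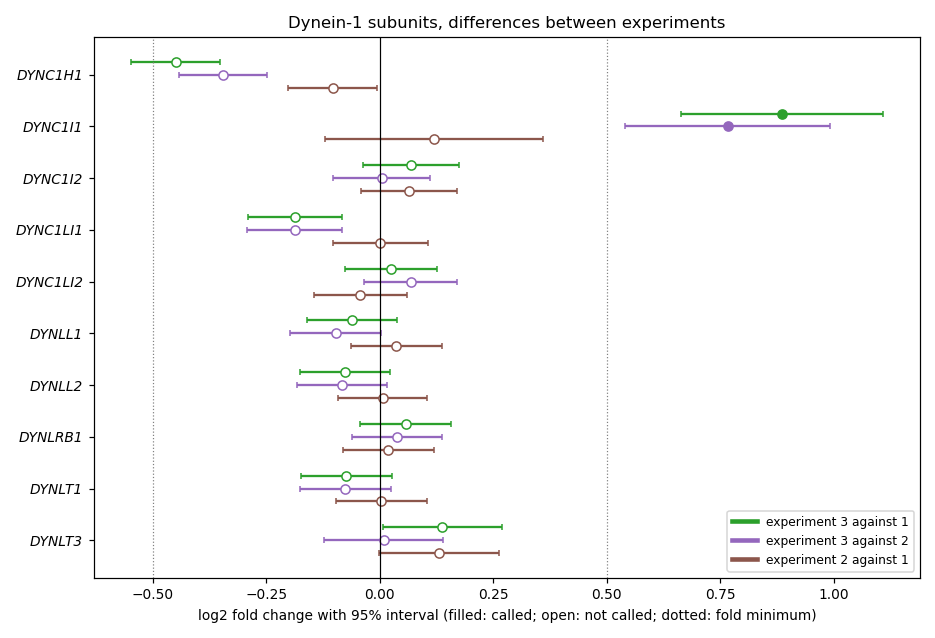
Log2 fold changes (x axis) of the 10 subunits (y axis) between experiments with the guide held fixed, as points with 95% intervals from edgeR; filled points were called and dotted lines mark the fold minimum of 0.5. DYNC1I1 is filled at 0.89 and 0.77 for experiment 3, and DYNC1H1 lies at -0.45 and -0.35.

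The genes around each subunit were given as a further comparison. Neighbours were the tested genes within 1 Mb that had at least 1 CPM on average. The 14 neighbours of DYNC1I2 had a median log2 fold change of 0.02 in crSUGP1 against NTC and 0.05 against crXCR1, and 0 of them were called. For the 9 other subunits that median ran from -0.03 to 0.05 against NTC. DYNC1LI1 stood apart from the rest in the crXCR1 comparisons, as above.

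**Figure D5:**
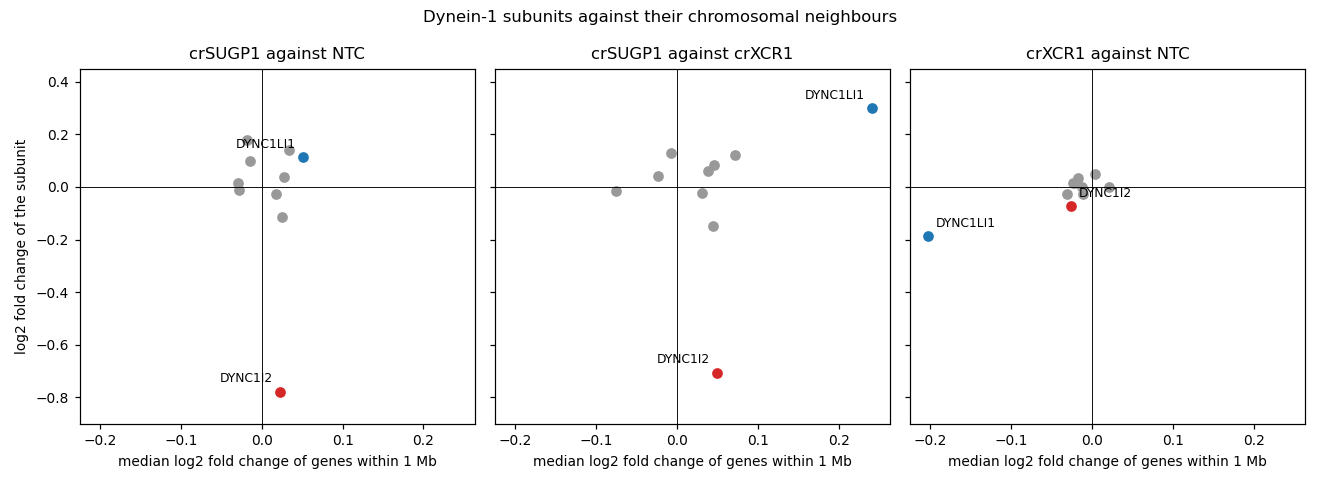
Log2 fold change of each subunit (y axes) against the median log2 fold change of the genes of at least 1 CPM within 1 Mb of it (x axes), in the 3 comparisons between guides. DYNC1I2 is red, DYNC1LI1 blue and the others grey. DYNC1I2 lies at -0.78 and -0.71 where its neighbours have medians of 0.02 and 0.05, and DYNC1LI1 lies at -0.19 in crXCR1 against NTC where its neighbours have a median of -0.20.

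Of the partners of dynein-1, the 12 dynactin genes, which encode the complex that dynein-1 needs for processive movement, had 0 called in either crSUGP1 comparison, with log2 fold changes from -0.05 to 0.14 against NTC and -0.09 to 0.17 against crXCR1. None of the 18 tested genes of cargo adaptors was called in crSUGP1 (-0.35 to 0.18 against NTC and -0.44 to 0.17 against crXCR1), nor was any listed partner gene called in crXCR1 against NTC. Of all tested genes, 0.783% were called in crSUGP1 against NTC, 0.774% against crXCR1 and 0% in crXCR1 against NTC. At these shares, 0 calls in lists this short say little about the listed genes. Of 7 regulators, 1 was called, lower, in both crSUGP1 comparisons: PAFAH1B1, the gene of LIS1, which binds the motor domain and promotes its assembly with dynactin. PAFAH1B1 stood at 84.7, 84.5 and 81.7 CPM in NTC, at 87.5, 84.6 and 80.3 in crXCR1 and at 54.3, 57.1 and 53.9 in crSUGP1, with log2 fold changes of -0.60 (edgeR adjusted p = 0.000624) and -0.61 (0.000601). Its crSUGP1 libraries all lay below the other 6, as they did for 6.69% of all tested genes.

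Dynein-2, the motor of transport inside cilia, has chains of its own and shares light chains with dynein-1. Of its 5 tested genes 1 was called in both crSUGP1 comparisons, beside 0.783% of all tested genes against NTC and 0.774% against crXCR1. It is again an intermediate chain gene. DYNC2I2 stood at 175, 166 and 188 CPM in NTC, at 181, 171 and 195 in crXCR1 and at 88.3, 86.4 and 81.9 in crSUGP1. All 3 crSUGP1 libraries lay below the other 6, a position taken by 6.69% of all tested genes. The log2 fold changes were -1.04 (edgeR adjusted p = 0.000164) and -1.09 (0.000131). The other tested dynein-2 genes, of the heavy chain, the light intermediate chain, an intermediate chain and a light chain, had log2 fold changes from -0.27 to 0.08 against NTC and were not called. Exons of DYNC2I2 overlap SPTAN1 on the other strand by 10 bases, and those of PAFAH1B1 overlap a lncRNA and a pseudogene. DYNC2I2 and PAFAH1B1 lost their calls in the same fits without experiment 1 or 2 as DYNC1I2 did, with adjusted p values from 0.0806 to 0.182.

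Over the 9 libraries, the genes whose log2 CPM followed DYNC1I2 most closely among 16792 genes of at least 1 CPM were IQGAP1, a scaffold of the actin cortex (Pearson r = 0.997), ARMH3 (0.996), RECQL, a DNA helicase (0.995), PARP2, a poly(ADP-ribose) polymerase of DNA repair (0.995), and SPC25, a kinetochore subunit (0.995). All 5 had an adjusted p of 0.00309 or less in both crSUGP1 comparisons and all but SPC25, at -0.48 and -0.46, were past the fold minimum. Mean levels with NTC, crXCR1 and crSUGP1 were 212, 208 and 121 CPM for IQGAP1 and 76.3, 73.9 and 37.5 CPM for RECQL. The 9 points fall into the 3 crSUGP1 libraries and the other 6, so these correlations describe that separation and carry no p. The 5 genes were picked by it, so their small adjusted p values and lower levels in crSUGP1 largely follow from the choice and are no separate evidence.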

How the data were processed

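PolyA RNA of 9 U-2 OS cultures was sequenced in read pairs. Per the submitters' processing notes and the study's methods, reads were trimmed with Trim Galore 0.6.7 and cutadapt 2.4, aligned to GRCh38 with STAR 2.7.9a and counted over exons in SeqMonk by the authors, who deposited raw counts per gene. The counting strand is not given in the sources used here.

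From these counts, 32 of 38179 entries were dropped as identical or empty repeats among 51 names listed more than once (the remaining repeats were kept), and the 21071 genes whose log2 CPM exceeded -2 in 1 library or more entered edgeR 4.0.16 (R 4.3.3): quasi-likelihood test, TMM scaling, all 9 libraries, condition as the only term (6 residual degrees of freedom). Experiments were compared with condition and experiment as terms (4 residual degrees of freedom). In the fit with condition only, p-values between guides rest on the spread among the 3 libraries of a guide, each from another experiment. That fit does not use the pairing of libraries by experiment. With the experiment as a term, the shift that the libraries of an experiment share is taken out, and p-values rest on the spread that remains. Comparisons of experiments treat the 3 libraries of an experiment, each with another guide, as its replicates, so their p-values do not measure the spread between experiments. Calls needed an adjusted p (Benjamini-Hochberg) no higher than 0.05 and a log2 fold change of 0.5 or more in size. Paralog ratios, with 0.5 added to each count, were compared by exact permutation tests. Lengths and sequences came from GENCODE v44 on GRCh38. The fitting code was tested on simulated data.

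Same-numbered libraries came from the same experiment in the study's methods, and their deviations from the group means correlated at 0.483 to 0.893 over 9 pairs, against -0.843 to 0.642 over the 18 other pairs (16793 genes). Alternatives were DESeq2 1.42.0, other scalings and filters, the experiment as a block and leaving out libraries or whole experiments; the block combined with a left-out experiment, and the same alternatives for PAFAH1B1 and DYNC2I2, were added after the data were seen. The members and lists were chosen with earlier results of these data known. Named were the 10 subunits, DYNLRB2, the guide targets, genes of the partner lists that were called, genes with overlapping exons on the other strand and the 5 genes most like DYNC1I2; the markers, ATMIN and the remaining dynein-2 genes are named as background levels. Replicate libraries differed by more than sampling noise.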

Additional observations from a re-analysis of the deposited data

How the results depend on the processing

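The fall of DYNC1I2 kept its direction in all 22 settings, at -0.82 to -0.71 on the log2 scale against NTC and -0.74 to -0.68 against crXCR1, and it was called in 20 of 22. The exceptions left out all 3 libraries of experiment 1 or of experiment 2: over the left-out experiments and libraries, the count of subunits called ran from 0 to 1 in both crSUGP1 comparisons. All-gene calls against NTC and crXCR1 were 2 and 1 without experiment 1, 0 and 2 without experiment 2 and 419 and 491 without experiment 3; the cause was not tested. With the replicate block, 1, 1 and 0 subunits were called in crSUGP1 against NTC, crSUGP1 against crXCR1 and crXCR1 against NTC, as without it, while all-gene calls went from 165 to 601, from 163 to 821 and from 0 to 1; apart from STMN2 it changed no call of a named gene. DESeq2 called 243, 271 and 0 genes. With no fold minimum, 3 subunits rather than 1 were called in experiment 3 against 1 and against 2, which adds DYNC1H1 and DYNC1LI1. Among uncalled values, 55 of 660 between guides and 16 of 450 between experiments changed sign; their sizes before the change were at most 0.139 and 0.0611 on the log2 scale, and after it at most 0.28 (DYNC1I1) and 0.0604. The ratio tests say nothing of stability, since a lone ratio at its smallest possible p has an adjusted p of 0.0952 to 0.80 depending on the setting. DYNC1I1, at 198 to 525 counts per library, is limited by its depth and by its spread between experiments.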
